A study of Mus musculus with 18 samples.

Results

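Ndst3, L1cam, Map1a, Tubb2a, Tmod1, Adamtsl5, Plekhb1 and S100b are genes of cell adhesion, the cytoskeleton and calcium signalling, most of them known from neural cells, that stood higher in B16F10 melanomas with Hgs knockdown than in control melanomas. They are 8 of the 23453 genes in the count table. They were picked because their level was higher in knockdown than in control tumours, so their tumour values below are a description and carry no test. Their levels in the cultures of both batches were not used in the choice, and the tests given are on those.

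B16F10 is a melanoma line of the C57BL/6 mouse, and Hgs encodes Hrs, an endosomal protein that gathers ubiquitinated membrane proteins for sorting to lysosomes or exosomes. Cells received by lentivirus either an shRNA against Hgs in the vector pLKO.1 (shHrs) or a scrambled shRNA (shCTL), and were selected with puromycin or blasticidin. RNA was sequenced from 5 shHrs and 5 shCTL tumours, grown in wild type female C57BL/6 mice of 6 to 8 weeks, whose immune system was intact. It was also sequenced from cultures in 2 batches, each with 2 shHrs and 2 shCTL libraries. All groups carry a lentiviral shRNA and drug selection. A tumour library holds RNA of the melanoma cells and of the host cells among them. A changed level per cell and a changed share of expressing cells therefore cannot be told apart. It is not stated in the labels if the cultures within a batch were grown apart or if the shHrs cells hold more than 1 hairpin, so the culture p-values measure library-to-library spread, which may be technical.

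Melanocytes arise from the neural crest, as Schwann cells and sensory neurons do, and melanoma cells share several genes with these lineages. L1cam and heparan sulfate act at the cell surface in adhesion and growth factor binding, microtubules and spectrin-actin networks shape the cell beneath it, and S100 proteins bind calcium and regulate target proteins. S100b is a classical tissue marker of melanoma, and L1CAM has been studied in melanoma invasion.

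Total counts ran from 18.8 to 27.7 M in shHrs tumours, 17.6 to 22.0 M in shCTL tumours, and 18.5 to 27.6 M in cultures. Hgs was lower in every shHrs library than in every shCTL library of the same set. In tumours it stood at 16.1 to 29.2 CPM (counts per M counts of the library) with shHrs and 95.8 to 112 CPM with shCTL, a log2 fold change of -2.28 (SE 0.16, adjusted p = 0.000106 by edgeR's quasi-likelihood test). In cultures the log2 fold change was -1.67 (SE 0.22, adjusted p = 0.103) in batch 1 and -1.30 (SE 0.22, adjusted p = 0.0268) in batch 2. The shHrs cultures of batch 1 differed from each other more than any other pair of replicates, with a chi-square of 209 per degree of freedom. Skeletal muscle transcripts differed widely between tumours and are given with the tumour results.

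Promoter sequences are shown for 4 of the genes because they differ in base composition and hold the motif matches found. They come from RefSeq (build GRCm38.p6) and run 300 bases, from 250 before to 50 after the start of transcription. All 8 genes matched, with 11 promoters between them. In the first pair, capitals mark motif matches. The Tubb2a promoter (chr13:34077959-34078258, minus strand) held the cyclic AMP response element TGACGTCA, whose first base lies 59 bases before the start, and the TATA motif TATAAA 29 bases before it. One of the Ndst3 promoters (chr3:123619401-123619700, minus strand) held the M-box TCATGTG, the form of E-box described in promoters of pigment genes, 132 bases before the start. In the second pair, capitals mark CpG dinucleotides, for an L1cam promoter rich in them (chrX:73880741-73881040, minus strand) and the S100b promoter, which is poor in them (chr10:76253586-76253885, plus strand).
Tubb2a: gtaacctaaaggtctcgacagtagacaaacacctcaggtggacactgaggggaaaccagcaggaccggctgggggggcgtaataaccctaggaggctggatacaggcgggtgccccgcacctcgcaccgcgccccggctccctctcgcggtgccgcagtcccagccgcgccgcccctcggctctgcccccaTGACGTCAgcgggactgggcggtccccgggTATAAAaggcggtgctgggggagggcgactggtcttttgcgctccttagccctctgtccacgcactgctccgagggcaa
Ndst3: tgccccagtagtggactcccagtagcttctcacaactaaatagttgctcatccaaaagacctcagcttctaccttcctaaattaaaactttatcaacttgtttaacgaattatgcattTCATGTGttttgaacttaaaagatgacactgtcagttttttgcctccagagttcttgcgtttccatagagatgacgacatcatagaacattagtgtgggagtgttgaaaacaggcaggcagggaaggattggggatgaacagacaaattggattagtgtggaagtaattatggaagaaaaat
L1cam: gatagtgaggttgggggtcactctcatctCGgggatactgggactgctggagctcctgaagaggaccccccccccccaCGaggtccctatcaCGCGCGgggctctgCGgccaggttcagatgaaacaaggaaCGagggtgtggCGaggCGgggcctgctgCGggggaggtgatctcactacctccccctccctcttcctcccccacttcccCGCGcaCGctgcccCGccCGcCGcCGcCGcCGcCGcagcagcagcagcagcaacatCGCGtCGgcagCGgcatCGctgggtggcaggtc
S100b: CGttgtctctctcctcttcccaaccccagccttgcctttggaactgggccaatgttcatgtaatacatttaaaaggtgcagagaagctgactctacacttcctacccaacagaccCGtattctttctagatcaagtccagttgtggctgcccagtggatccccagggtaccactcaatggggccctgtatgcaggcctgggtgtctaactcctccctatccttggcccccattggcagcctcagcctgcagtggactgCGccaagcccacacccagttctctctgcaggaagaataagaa

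The 8 genes fell into 2 kinds by these windows. Adamtsl5 had 29 CpG, Map1a 27, Tmod1 and Tubb2a 25 each, and the L1cam promoters 25 and 22. Ndst3 had 3 and 1, Plekhb1 3 and 6, and S100b 3, against a median of 7 over all 32851 RefSeq promoters. The GC share ran from 39.0% in the Ndst3 window shown to 72.0% in Adamtsl5, against a median of 52.7%. TGACGTCA occurred in 1.79% of all promoters, TATAAA in 13.6% and TCATGTG in 3.77%, and each was found at 1 of the 8 genes. Searched on both strands, 5 other motifs were found at none of the 8. These were the E-box CACGTG (7.15% of all promoters), the SOX core AACAAT (10.7%), the AP-1 motif TGANTCA (7.81%), the heat shock unit GAANNTTC (7.86%) and the interferon-stimulated response element (3.44%). TCATGTG and CACGTG are forms of the E-box CANNTG that cannot share its bases, and a match is a description of the sequence alone.

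In tumours, the highest control lay below the lowest knockdown tumour for all 8 genes. Their log2 fold changes ran from 0.84 to 2.11 with a median of 1.32, against a median of 0.0075 over the 13215 genes tested. All 8 passed the filter on low counts. All 8 are among the genes called higher by edgeR at an adjusted p under 0.05, a share of 0.235% of the genes tested, while 0.31% were called lower. For 2% of the genes tested, every shHrs tumour lay above every shCTL tumour. Nothing is read from these shares, since the genes were chosen on this contrast.

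Genes that act at the cell surface and in the matrix come first. Ndst3 (chromosome 3 from 123526166 to 123690853 of GRCm38, minus strand) encodes a Golgi enzyme that replaces acetyl with sulfate groups on heparan sulfate chains. Its level was 4.34, 2.65, 3.19, 3.33 and 4.93 CPM in the shHrs tumours, against 0.58, 1.04, 1.00, 0.633 and 1.00 CPM in the shCTL tumours. The lowest shHrs tumour stood 2.55-fold above the highest shCTL tumour, the widest gap among the 8 genes. Means were 3.69 ± 0.92 CPM with shHrs and 0.849 ± 0.223 CPM with shCTL (SD, n = 5 each), and their log2 fold change was 2.11 (SE 0.27). The values rest on 51 to 122 counts per shHrs tumour and 11 to 21 per shCTL tumour, the fewest of the 8 genes.

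L1cam (chromosome X from 73853778 to 73896105, minus strand) encodes an immunoglobulin-like adhesion molecule of growing axons that also occurs on Schwann cells and many tumours. It stood at 18.4, 14.1, 14.3, 14.8 and 14.4 CPM in shHrs tumours, against 3.82, 2.28, 5.10, 2.07 and 6.97 CPM in shCTL tumours. The shHrs tumours lay close together apart from replicate 1, and the shCTL tumours spread over more than a 3-fold range. With means of 15.2 ± 1.8 CPM in shHrs and 4.05 ± 2.04 CPM in shCTL tumours (SD, n = 5 each), the log2 fold change was 1.90 (SE 0.30). L1cam shares 1.36% of its exon bases with Arhgap4 on the same strand.

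Adamtsl5 (chromosome 10 from 80339110 to 80348412, minus strand) encodes a secreted protein of the ADAMTS-like family, which lacks the protease domain of the ADAMTS enzymes and binds fibrillin. It stood at 19.8, 16.3, 20.6, 32.9 and 16.9 CPM in shHrs tumours, against 8.21, 8.31, 9.14, 7.83 and 9.12 CPM in shCTL tumours. The control tumours were nearly level, and shHrs tumour 4 was the highest. Means were 21.3 ± 6.7 CPM with shHrs and 8.52 ± 0.58 CPM with shCTL (SD, n = 5 each), which gave a log2 fold change of 1.32 (SE 0.19).

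Among the cytoskeletal genes, Map1a (chromosome 2 from 121289600 to 121310832, plus strand) encodes a protein that binds and stabilises microtubules, mainly in mature neurons. Its level was 11.7, 12.6, 21.2, 16.3 and 20.4 CPM in shHrs tumours, against 4.20, 4.65, 5.86, 6.56 and 8.85 CPM in shCTL tumours. Both groups spread over about the same fold, and the gap between them was 1.32-fold. Means of 16.4 ± 4.4 CPM with shHrs and 6.02 ± 1.84 CPM with shCTL (SD, n = 5 each) gave a log2 fold change of 1.44 (SE 0.24). Map1a shares 2.24% of its exon bases with Ppip5k1 on the opposite strand.

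Tubb2a (chromosome 13 from 34074274 to 34078007, minus strand) encodes a beta-tubulin, one of the chains that polymerise into microtubules, and is abundant in neurons. It had 26.7, 31.5, 22.7, 36.9 and 24.2 CPM in shHrs tumours, against 15.2, 14.5, 11.5, 12.5 and 16.6 CPM in shCTL tumours. The groups did not overlap, with a gap of 1.36-fold. Means were 28.4 ± 5.8 CPM with shHrs and 14.1 ± 2.1 CPM with shCTL (SD, n = 5 each), and the log2 fold change was 1.01 (SE 0.16). Of its windows of 125 bases, 31.5% also occur in the near-identical Tubb2b, so some reads may have been shared between these copies. Tubb2b itself stood at 6.28 CPM in shHrs and 3.72 CPM in shCTL tumours.

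Tmod1 (chromosome 4 from 46038935 to 46116032, plus strand) encodes tropomodulin, which caps the slow-growing end of actin filaments in the membrane skeleton of red cells and in muscle sarcomeres. It had 24.2, 33.2, 32.6, 29.1 and 43.3 CPM in shHrs tumours, against 14.3, 14.7, 10.8, 10.4 and 14.8 CPM in shCTL tumours. The lowest shHrs tumour was 1.63-fold above the highest control. Means were 32.5 ± 7.0 CPM with shHrs and 13.01 ± 2.22 CPM with shCTL (SD, n = 5 each), for a log2 fold change of 1.31 (SE 0.16). Tmod1 shares 32.6% of its exon bases with Tstd2 on the opposite strand. Whether the counting used strand is not given in the sources used here, and reads of this overlap could not be told apart. Tstd2 had a log2 fold change of -0.03 (SE 0.17, adjusted p = 0.965 by edgeR) in tumours.

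The remaining pair act in signalling. Plekhb1 (chromosome 7 from 100642892 to 100662414, minus strand) encodes a membrane-anchored protein with a pleckstrin homology domain, known from photoreceptors and brain. It stood at 3.95, 5.88, 5.48, 5.85 and 4.11 CPM in shHrs tumours, against 2.03, 2.23, 2.64, 2.82 and 2.60 CPM in shCTL tumours. The groups were separated by 1.40-fold. Means of 5.06 ± 0.95 CPM with shHrs and 2.46 ± 0.32 CPM with shCTL (SD, n = 5 each) gave a log2 fold change of 1.03 (SE 0.20).

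S100b (chromosome 10 from 76253853 to 76261159, plus strand) encodes a calcium-binding protein of glia, Schwann cells and melanocytes. It had 135, 209, 209, 210 and 217 CPM in shHrs tumours, against 117, 97.2, 102, 120 and 111 CPM in shCTL tumours. Of the shHrs tumours, 4 were nearly level, and replicate 1 lay just above the controls, 1.12-fold over the highest of them. Means were 196 ± 34 CPM with shHrs and 109 ± 10 CPM with shCTL (SD, n = 5 each), and the log2 fold change was 0.84 (SE 0.13), the smallest of the 8.

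**Figure D1:**
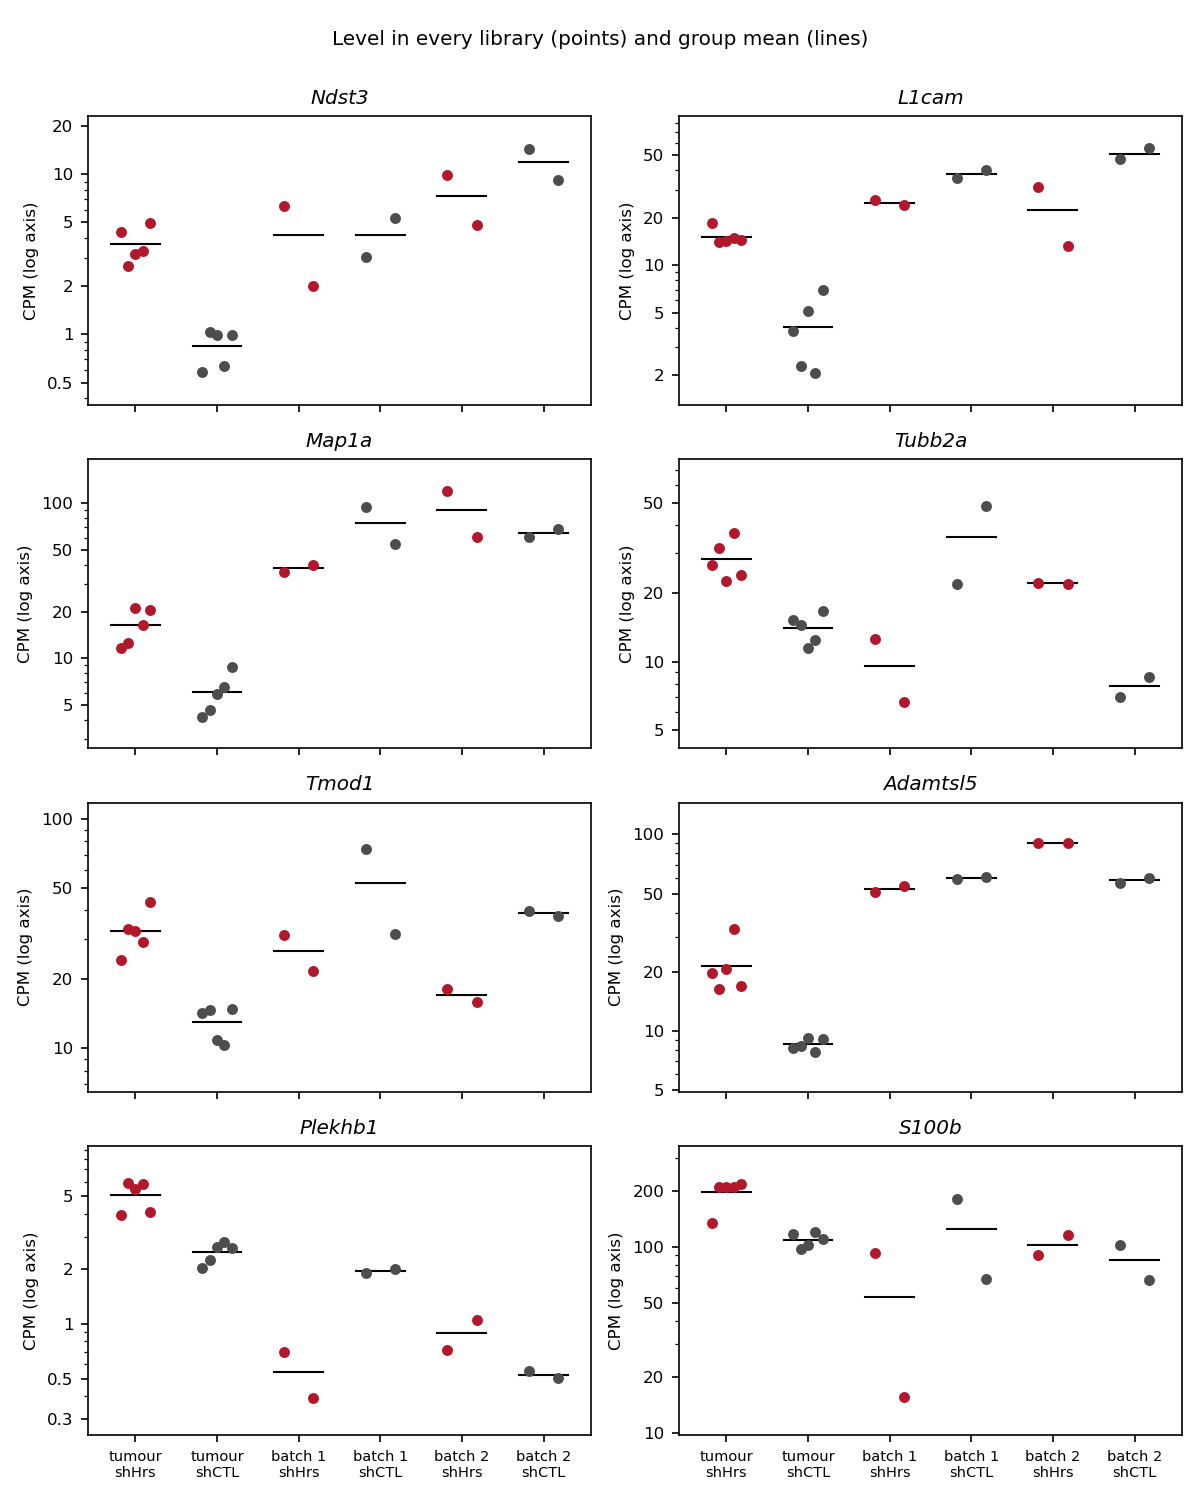
Level of each of the 8 genes in CPM (log axis, on TMM-scaled library sizes) in every library, with shHrs in red to the left of shCTL in grey for tumours and for each culture batch. Points are libraries and lines are group means. In tumours every red point lies above every grey point, as in Ndst3 with 2.65 to 4.93 CPM against 0.58 to 1.04 CPM, while in the cultures the order differs between genes and batches.

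Per kilobase of exon, the mean level in shHrs tumours ran from S100b with 132 CPM per kb over Tubb2a (17.6), Tmod1 (8.23), Adamtsl5 (4.51), L1cam (2.07), Plekhb1 (1.36) and Map1a (1.35) to Ndst3 (0.373). In shCTL tumours the order was the same except for L1cam (0.551), which stood below Plekhb1 (0.663) and above Map1a (0.495). The SD was 0.26 CPM per kb for Plekhb1 and 0.36 for Map1a in shHrs tumours, so these neighbours did not differ beyond their spread. The same tumours were not high for all genes. Tumour shHrs 5 was the highest for 3 genes, shHrs 4 for 2, and shHrs 1, 2 and 3 for 1 each, while shHrs 1 was the lowest for 4. Among controls, shCTL 5 was the highest for 4 genes and the lowest for 0.

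Control tumours stood below the control cultures of each batch for 5 of the 8 genes. How many of all genes did so was not counted, so this is not read as a trait of the 8 genes. The means of shCTL tumours were 0.087 times those of shCTL cultures for Map1a, 0.091 for L1cam, 0.106 for Ndst3, 0.144 for Adamtsl5 and 0.285 for Tmod1. For these 5 genes the means of shHrs tumours lay in between, at 0.237, 0.341, 0.459, 0.36 and 0.711 times the shCTL cultures in the same order. By library, some shHrs tumours stood above some shCTL cultures for Tmod1 and Ndst3. The ratio of shCTL tumours to shCTL cultures was 0.653 for Tubb2a, 1.05 for S100b and 2.00 for Plekhb1, and that of shHrs tumours was 1.32, 1.88 and 4.11. For Tubb2a and S100b the direction differed between batches, since shCTL tumours averaged 14.1 CPM of Tubb2a against 35.3 CPM in batch 1 and 7.81 CPM in batch 2, and 109 CPM of S100b against 124 CPM in batch 1 and 84.5 CPM in batch 2. These levels were not tested, because tumour tissue and the processing of the tumour libraries as a set cannot be told apart.

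Over both culture batches, none of the 8 genes passed the test and 7 of them had negative log2 fold changes (48.3% of all genes were positive), with a median of -0.43, against -0.018 over all 12617 genes tested. All 8 passed the filter on low counts in the cultures. On simulated counts, edgeR recovered only 8% of log2 fold changes of 1 over both batches, 2.13% in batch 1 and 2.08% in batch 2. A gene that did not pass in cultures is therefore not shown to be unchanged. EdgeR called 0% of the genes (0 of 12617), limma voom 5 and DESeq2 301, and 13.3% of all genes and 2 of the 8 had an unadjusted p under 0.05. These were L1cam, with a log2 fold change of -0.93 (SE 0.29, adjusted p = 0.329), and Tmod1, with -1.11 (SE 0.27, adjusted p = 0.286). L1cam had 25.8 and 24.0 CPM in shHrs and 35.7 and 40.4 CPM in shCTL cultures of batch 1, and 31.4 and 13.3 CPM in shHrs and 46.9 and 55.3 CPM in shCTL cultures of batch 2. Every shHrs culture lay below every shCTL culture of its batch. Tmod1 had 31.2 and 21.9 CPM in shHrs and 73.7 and 31.6 CPM in shCTL cultures of batch 1, and 18.1 and 15.99 CPM in shHrs and 39.5 and 38.0 CPM in shCTL cultures of batch 2. It too lay below the controls in both batches, although the gap in batch 1 was small. DESeq2 called Tmod1 over both batches (adjusted p = 0.0223), within a range of 0.0223 to 0.744 over its alternatives. Such a position below the controls in both batches was found for 5.14% of all genes. Both genes thus had a positive difference in tumours and a negative one in cultures, and the difference between these was not tested because the tumour contrast chose the genes.

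In batch 1, all 8 genes had negative log2 fold changes, while 50.6% of all genes had positive ones, with a median of -0.99 against 0.0073 over 12897 genes, and none passed the test (adjusted p = 0.285 to 0.996 by edgeR). EdgeR called 0% of the genes (0 of 12897) in this batch, limma voom 0 and DESeq2 220. An unadjusted p under 0.05 was found for 4 of the 8 and for 9.38% of all genes. Tubb2a had 12.6 and 6.66 CPM in shHrs against 22.0 and 48.5 CPM in shCTL cultures, a log2 fold change of -1.88 (SE 0.45). Plekhb1 had 0.700 and 0.392 CPM in shHrs against 1.88 and 1.99 CPM in shCTL cultures (-1.82, SE 0.54), from 8 and 13 against 36 to 48 counts. Map1a had 36.0 and 40.1 CPM against 94.8 and 54.5 CPM (-0.98, SE 0.37). For each of these, both shHrs libraries lay below both shCTL libraries, as for Tmod1 (-0.99, SE 0.39) and L1cam (-0.62, SE 0.38), and as for 16.8% of all genes in this batch. Adamtsl5 lay below as well, but within a narrow range, at 50.9 and 54.9 CPM in shHrs against 59.0 and 60.9 CPM in shCTL cultures (-0.19, SE 0.20).

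The shHrs cultures of batch 1 differed most for S100b and Ndst3. S100b had 92.2 and 15.6 CPM with shHrs, against 181 and 67.3 CPM with shCTL, and the groups overlapped (-1.19, SE 0.75). Ndst3 had 6.30 and 2.01 CPM with shHrs, against 3.06 and 5.35 CPM with shCTL, a log2 fold change of -0.01 (SE 0.62). Without shHrs replicate 2 the value for Ndst3 turned to 0.61. Without shHrs replicate 1, edgeR called S100b (-3.02, adjusted p = 0.0106) and Tubb2a (-2.45, adjusted p = 0.0135) lower, and 11.3% of all genes in either direction. Replicate 2 then stands alone for shHrs and is assumed to vary like the libraries of the other groups. Over their alternatives the adjusted p ran from 0.0106 to 1.00 for S100b and from 0.00112 to 0.958 for Tubb2a. Tubb2a was called in batch 1 by DESeq2 (0.00765) as well, and by edgeR when genes of low count were kept (0.00112).

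In batch 2 the 8 genes parted, with 5 positive and 3 negative log2 fold changes (47.3% of all genes were positive), a median of 0.34 against -0.049 over all genes, and none past the test (adjusted p = 0.0875 to 0.862 by edgeR). EdgeR called 4.03% of 12897 genes in this batch, 1.6% higher and 2.43% lower, and 27.9% of genes and 4 of the 8 had an unadjusted p under 0.05. Tubb2a stood at 22.2 and 22.0 CPM in shHrs against 7.02 and 8.59 CPM in shCTL cultures, a log2 fold change of 1.45 (SE 0.45, adjusted p = 0.0875). Adamtsl5 had 90.7 CPM in both shHrs libraries against 56.6 and 60.2 CPM with shCTL (0.59, SE 0.20, adjusted p = 0.101). Plekhb1 had 0.718 and 1.05 CPM against 0.547 and 0.501 CPM (0.71, SE 0.54, adjusted p = 0.422). Every shHrs library lay above every shCTL library for these 3 genes, as for 35% of all genes in this batch. On the negative side, L1cam had -1.24 (SE 0.38, adjusted p = 0.0875) and Tmod1 -1.23 (SE 0.39, adjusted p = 0.0917), and both lay below every control, as did 34.7% of all genes.

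Map1a, Ndst3 and S100b overlapped between the groups of batch 2. Map1a had 120.2 and 60.8 CPM in shHrs against 60.5 and 68.0 CPM in shCTL cultures (0.45, SE 0.37), and without shHrs replicate 1 the value was -0.14. Ndst3 had 9.86 and 4.81 CPM against 14.5 and 9.26 CPM (-0.74, SE 0.61). S100b had 90.1 and 115 CPM against 102 and 66.5 CPM (0.23, SE 0.74), with values from -0.06 to 0.59 when single libraries were left out. The spread in these tests is shared with batch 1, and fits without one of its shHrs libraries called far more genes. L1cam, Tubb2a and Tmod1 were called without batch 1 shHrs replicate 1 (adjusted p = 0.0383, 0.0193 and 0.0324), where 20.4% of all genes were called, and without batch 1 shHrs replicate 2 (0.0330, 0.0191 and 0.0302), where 20.7% were. When batch 2 was fitted alone, these 3 and Adamtsl5 passed (0.00777, 0.000365, 0.000886 and 0.0343), as did 34.1% of all genes. Over all alternatives the adjusted p ran from 0.00777 to 0.376 for L1cam, 0.000365 to 0.366 for Tubb2a, 0.000886 to 0.424 for Tmod1 and 0.0343 to 0.404 for Adamtsl5.

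**Figure D2:**
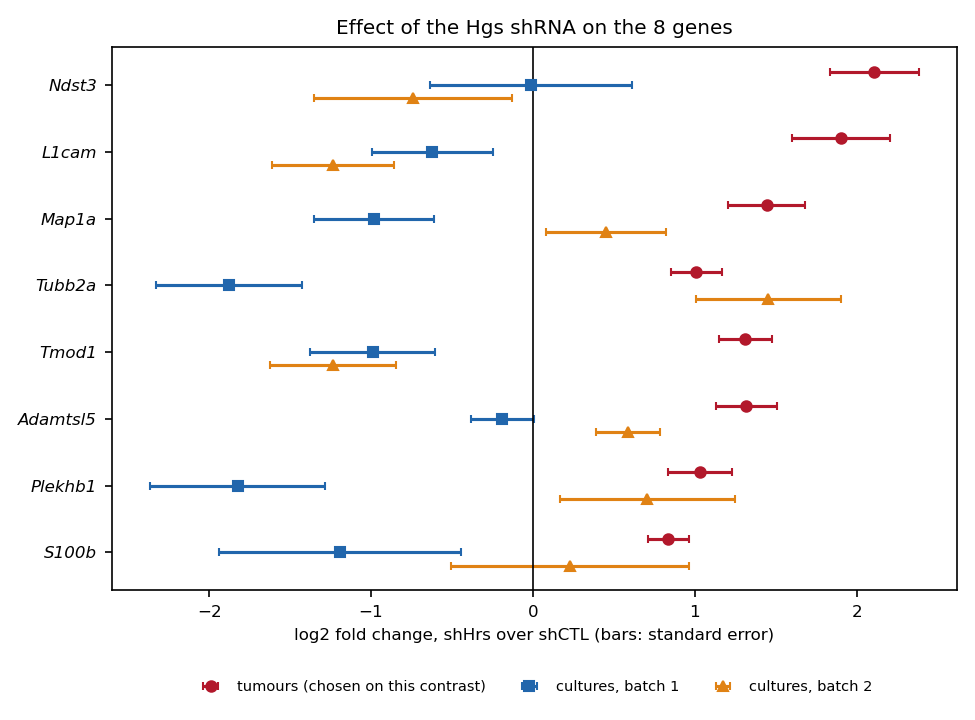
Log2 fold change of shHrs over shCTL (x axis, bars are standard errors) for the 8 genes in tumours (red circles, the contrast on which they were chosen), batch 1 (blue squares) and batch 2 (orange triangles). The red circles lie between 0.84 and 2.11, the blue squares lie at or below 0, and the orange triangles fall on both sides, with Tubb2a at 1.45 and L1cam at -1.24.

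The knockdown's effect in batch 2 minus that in batch 1 was tested as an interaction, which edgeR called for 0.155% of 12897 genes and for none of the 8 (adjusted p = 0.0693 to 0.830). Tubb2a had the widest difference among the 8, 3.33 (SE 0.63, adjusted p = 0.0693), with -1.88 in batch 1 and 1.45 in batch 2. Plekhb1 differed by 2.53 (SE 0.77, adjusted p = 0.140), Map1a by 1.43 (SE 0.52, 0.186) and Adamtsl5 by 0.78 (SE 0.28, 0.176), and these 4 had an unadjusted p under 0.05, as did 20.3% of all genes. For Tubb2a the adjusted p ran from 8.67e-06 to 0.340 over the alternatives. It passed without batch 1 shHrs replicate 1 (0.00346), shHrs replicate 2 (0.0222) or shCTL replicate 1 (0.0386), and by DESeq2 (4.79e-05) and edgeR with low genes kept (8.67e-06). Map1a passed only with low genes kept (0.0330). Without batch 1 shHrs replicate 1, Plekhb1 (0.0488) and S100b (0.0120) passed too. That fit called 14.8% of all genes, and those without shHrs replicate 2 and shCTL replicate 1 called 4.81% and 1.08%, in each case with a lone library assumed to vary like the other groups.

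The shCTL cultures themselves differed in level between batches for 3 genes, without passing the test. Tubb2a in shCTL cultures stood at 7.02 and 8.59 CPM in batch 2 against 22.0 and 48.5 CPM in batch 1, a log2 fold change of -2.18 (SE 0.46, adjusted p = 0.265 by edgeR). Plekhb1 stood at 0.547 and 0.501 CPM in batch 2 against 1.88 and 1.99 CPM in batch 1 (-1.88, SE 0.54, adjusted p = 0.531). Ndst3 was positive, as were 49.9% of all genes, at 14.5 and 9.26 CPM in batch 2 against 3.06 and 5.35 CPM in batch 1 (1.49, SE 0.62, adjusted p = 0.695). These 3 had an unadjusted p under 0.05, as had 7.06% of the genes, and edgeR called 0% of 12897 genes between these controls, limma voom 2 and DESeq2 129. The adjusted p of Tubb2a ran from 0.000135 to 1.00 over the alternatives, with a call without batch 1 shHrs replicate 1 (0.0233) or shHrs replicate 2 (0.0237), fits that called 1.15% and 1.11% of all genes. In both shHrs groups Tubb2a was within 6.66 to 22.2 CPM, with both libraries of batch 2 above both of batch 1, the reverse of the order in shCTL cultures.

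Paralogs of the 8 genes were mostly not called in tumours. These families were listed with earlier results known, and each member is left out of its own list. Of the 167 genes of the 9 families that were tested in tumours, edgeR called 4, limma voom 5 and DESeq2 13, and 34 had an unadjusted p under 0.05. Over all genes tested in tumours, edgeR called 0.545%, limma voom 0.59% and DESeq2 4.15%, 14.1% had an unadjusted p under 0.05 and 51.5% were positive. In the heparan sulfate pathway, 0 of 23 enzymes passed by edgeR, limma voom or DESeq2, with 4 at an unadjusted p under 0.05, 11 positive and a median log2 fold change of -0.01. Ndst1 and Ndst2, which carry out the same step as Ndst3 in most tissues, had -0.10 (SE 0.16) and -0.16 (SE 0.07). Of the core proteins that carry the chains, 0 of 12 passed by any of the 3 tools, with 1 at an unadjusted p under 0.05 and a median of -0.02. In the family of neural adhesion molecules, 0 of 16 passed by edgeR or limma voom, with 6 at an unadjusted p under 0.05, 13 positive and a median of 0.38, and DESeq2 called Alcam and Mcam higher. Nrcam, the L1 relative that was tested, had -0.02 (SE 0.17).

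Of the microtubule-associated proteins, edgeR called 3 of 22 higher and 0 lower, while the list's median was -0.03, 9 were positive and 6 had an unadjusted p under 0.05. DESeq2 also called Dclk2 higher and Camsap3 lower. Map1b, the relative of Map1a in growing axons, rose by 0.52 (SE 0.06, adjusted p = 0.00645 by edgeR), and the third relative Map1s had 0.01 (SE 0.10). Map6, which makes microtubules resistant to cold, rose by 0.94 (SE 0.14, adjusted p = 0.0148). Mapre3, an end-binding protein of growing microtubules, rose by 0.96 (SE 0.11, adjusted p = 0.00645). All 3 were called by limma voom and DESeq2 as well. In cultures edgeR called none of these 3 in either batch, with 1.16, -0.85 and -0.81 in batch 1 and -1.04, 1.06 and -0.78 in batch 2, where DESeq2 called Map6 higher (adjusted p = 0.0119). Of the tubulins and tubulin cofactors, 0 of 19 passed by edgeR and 4 had an unadjusted p under 0.05. Tubb2b had 0.75 (SE 0.21, adjusted p = 0.140 by edgeR and 0.0326 by DESeq2), with Tubb6 at 0.28 (SE 0.09), Tubb3 at 0.19 (SE 0.13), Tubb4b at 0.16 (SE 0.10), Tubb5 at -0.01 (SE 0.09) and Tubb4a at -0.02 (SE 0.40).

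Other families showed few calls. Of the tropomodulins and the spectrin-actin skeleton 0 of 18 passed by any of the 3 tools, with 3 at an unadjusted p under 0.05, 14 positive and a median of 0.10. Tmod2 had 1.18 (SE 0.50, adjusted p = 0.314), Tmod4 1.01 (SE 0.74) and the widely expressed Tmod3 0.10 (SE 0.09). Among genes of the ADAMTS-like and fibrillin matrix, 0 of 22 were higher and 1 was lower. This was Efemp2, a fibulin of elastic fibres, which fell by 1.02 (SE 0.20, adjusted p = 0.0469), and Adamtsl4 lay just outside the threshold at 0.90 (SE 0.17, adjusted p = 0.0511). DESeq2 called Adamtsl4 (0.000163), and Adamtsl1 and Adamtsl2 had -0.18 (SE 0.77) and -0.13 (SE 0.18). The paralogs Ndst4, Chl1, Nfasc and Adamtsl3 were too low to be tested in tumours. Of 26 proteins with pleckstrin homology domains, 0 passed by edgeR, with 3 at an unadjusted p under 0.05 and Plekhb2 at 0.07 (SE 0.12), and DESeq2 and limma voom called Plekhg1. Of 9 S100 proteins 0 passed by edgeR, with 3 at an unadjusted p under 0.05, but 8 were positive with a median of 0.54. S100a1 had 0.60 (SE 0.15, adjusted p = 0.103 by edgeR and 0.00519 by DESeq2), S100a4 1.17 (SE 0.59) and S100a6 0.59 (SE 0.56), and DESeq2 also called S100a11 higher (0.71, SE 0.22, adjusted p = 0.0384).

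**Figure D3:**
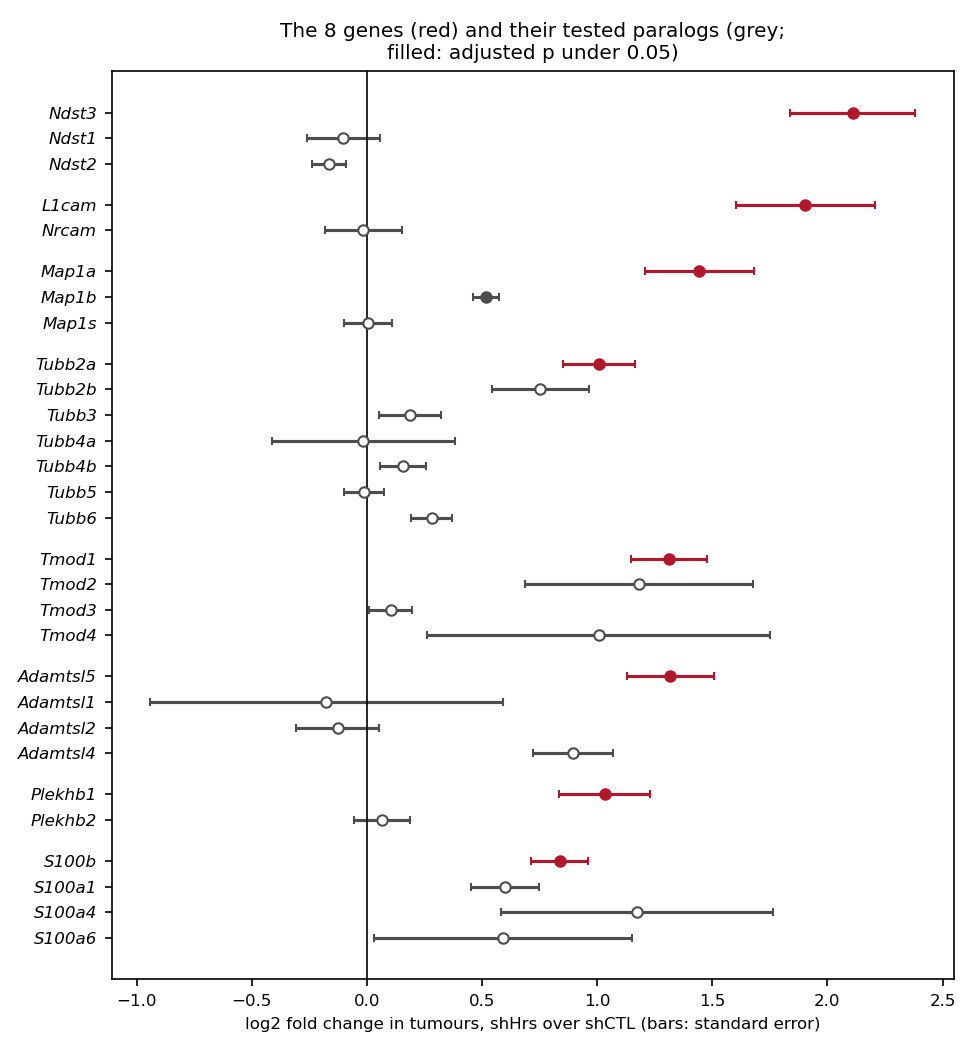
Log2 fold change in tumours, shHrs over shCTL (x axis, bars are standard errors), for the 8 genes in red, each followed by its tested paralogs in grey, filled where the adjusted p by edgeR was under 0.05. Map1b at 0.52 is the filled grey point, while Ndst1, Ndst2, Nrcam, Map1s, Tmod3 and Plekhb2 lie within 0.2 of 0.

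Over both culture batches and in batch 1, edgeR and limma voom called 0 genes of these 9 families. By edgeR 24 of 154 and 38 of 156 had an unadjusted p under 0.05, beside 13.3% and 9.38% of all genes. DESeq2 called 2 and 11, all of them lower, beside 2.39% and 1.71% of all genes in either direction. In batch 2 edgeR and limma voom called 6 of 156 each and DESeq2 20, beside 4.03%, 5% and 15.4% of all genes, so the share by edgeR was near the background. By edgeR the adhesion genes Cadm1 (-1.04, SE 0.23) and Ncam1 (-2.09, SE 0.43) fell, while DESeq2 called 5 adhesion genes lower and 1 higher. Tppp3, which promotes tubulin polymerisation, rose by 2.41 (SE 0.44). The actin nucleator Lmod1 of the tropomodulin family rose by 2.32 (SE 0.29), and had -1.99 (SE 0.30) in batch 1. The tubulin genes Tuba4a (1.44, SE 0.31) and Tube1 (-1.75, SE 0.37) moved in opposite directions. Adjusted p of the 6 genes called by edgeR in batch 2 ran from 0.0225 to 0.0468. In tumours Lmod1 had -0.47 (SE 0.29) and Tuba4a -0.13 (SE 0.15), neither past the test.

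The profiles over all 18 libraries were compared as root mean square distances between log2 CPM scaled to mean 0 and SD 1, for 13435 genes. This is a description, since these libraries include the tumours on which the genes were chosen. L1cam was the nearest gene to Ndst3 (0.539), and the next was Zfp287 (0.553), against a median distance of 1.44. Nearest to L1cam were Pitpnm1 (0.472) and Map1a (0.487). Map1a was nearest to Zfp365 (0.277) and Adamtsl5 (0.296), and Adamtsl5 to Speg and Coro2b (both 0.276). Ndst3, L1cam and Map1a thus each had another of the 8 among the nearest pair. Tubb2a was nearest to Vim (0.501) and B3galt5 (0.514), Tmod1 to Dnaic1 (0.441) and Mapre3 (0.474), Plekhb1 to Ldhd (0.366) and the muscle gene Neb (0.378), and S100b to Tmem14a (0.391) and Klhl36 (0.409).

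Markers of neural cells were looked at beside the 8 genes because several are known from neurons and Schwann cells. Of 16 neuron markers, Snap25 and Elavl4 had 0 counts in all tumours, and Nefl, Nefm and Scn10a had 1 count each in shHrs tumours and 0 in shCTL tumours. Of the other low markers, Stmn2 had 50 counts over shHrs against 8 over shCTL tumours, Syt1 17 against 3 and Isl1 12 against 2. Gap43 had 35 against 23, Elavl3 26 against 18, Rbfox3 18 against 16 and Nefh 11 against 6. In the other direction, Scn9a had 4 against 8 and Syn1 424 against 639. These raw counts are not scaled to depth, and total counts reached 27.7 M in shHrs and 22.0 M in shCTL tumours. The summed level was 39.2 to 65.3 CPM in shHrs and 41.8 to 64.5 CPM in shCTL tumours, mostly from Uchl1 and Prph, which the cultures express as well. Only 3 neuron markers passed the filter, of which 0 were called by any of the 3 tools and 0 had an unadjusted p under 0.05. The 18 Schwann cell markers summed to 1096 to 1266 CPM in shHrs and 1026 to 1176 CPM in shCTL tumours. Of 15 tested, 14 were positive (51.5% of all genes) with a median of 0.32, 5 had an unadjusted p under 0.05 (14.1% of all genes) and 0 were called by edgeR, while limma voom called 0 and DESeq2 called 2. Sox10 and Mbp made up most of that sum and were also present in cultures. Foxd3, a transcription factor of the neural crest, was at 0 in 3 of 5 shHrs and 4 of 5 shCTL tumours. The part of neurons and Schwann cells in the tumour levels of the 8 genes was not tested. The 10 genes of the melanoma line summed to 27261 to 36167 CPM in shHrs and 24638 to 31147 CPM in shCTL tumours, with 0 called by edgeR, 2 at an unadjusted p under 0.05 and 2 called higher by DESeq2 (Gpnmb and Mlana).

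Skeletal muscle transcripts were more abundant in most shHrs tumours. All 16 muscle markers had positive log2 fold changes, with a median of 2.29, 9 of them at an unadjusted p under 0.05 and 0 called by edgeR, while DESeq2 called Neb. Their sum was 403, 469, 153, 1262 and 55.3 CPM in the shHrs tumours, against 24.4, 44.7, 15.8, 71.6 and 296 CPM in the shCTL tumours, and 11.6 to 22.8 CPM in cultures. Without shHrs 1, 2 and 4 and shCTL 5, which hold the most muscle RNA, the log2 fold change was 2.30 for Ndst3, 2.10 for L1cam, 1.96 for Map1a, 0.79 for Tubb2a, 1.58 for Tmod1, 1.15 for Adamtsl5, 0.97 for Plekhb1 and 0.95 for S100b, between 2 shHrs and 4 shCTL tumours. This alternative was chosen after seeing the data, and the choice of genes fixed its sign. The part of muscle RNA in the tumour levels of the 8 genes was not tested.

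**Figure D4:**
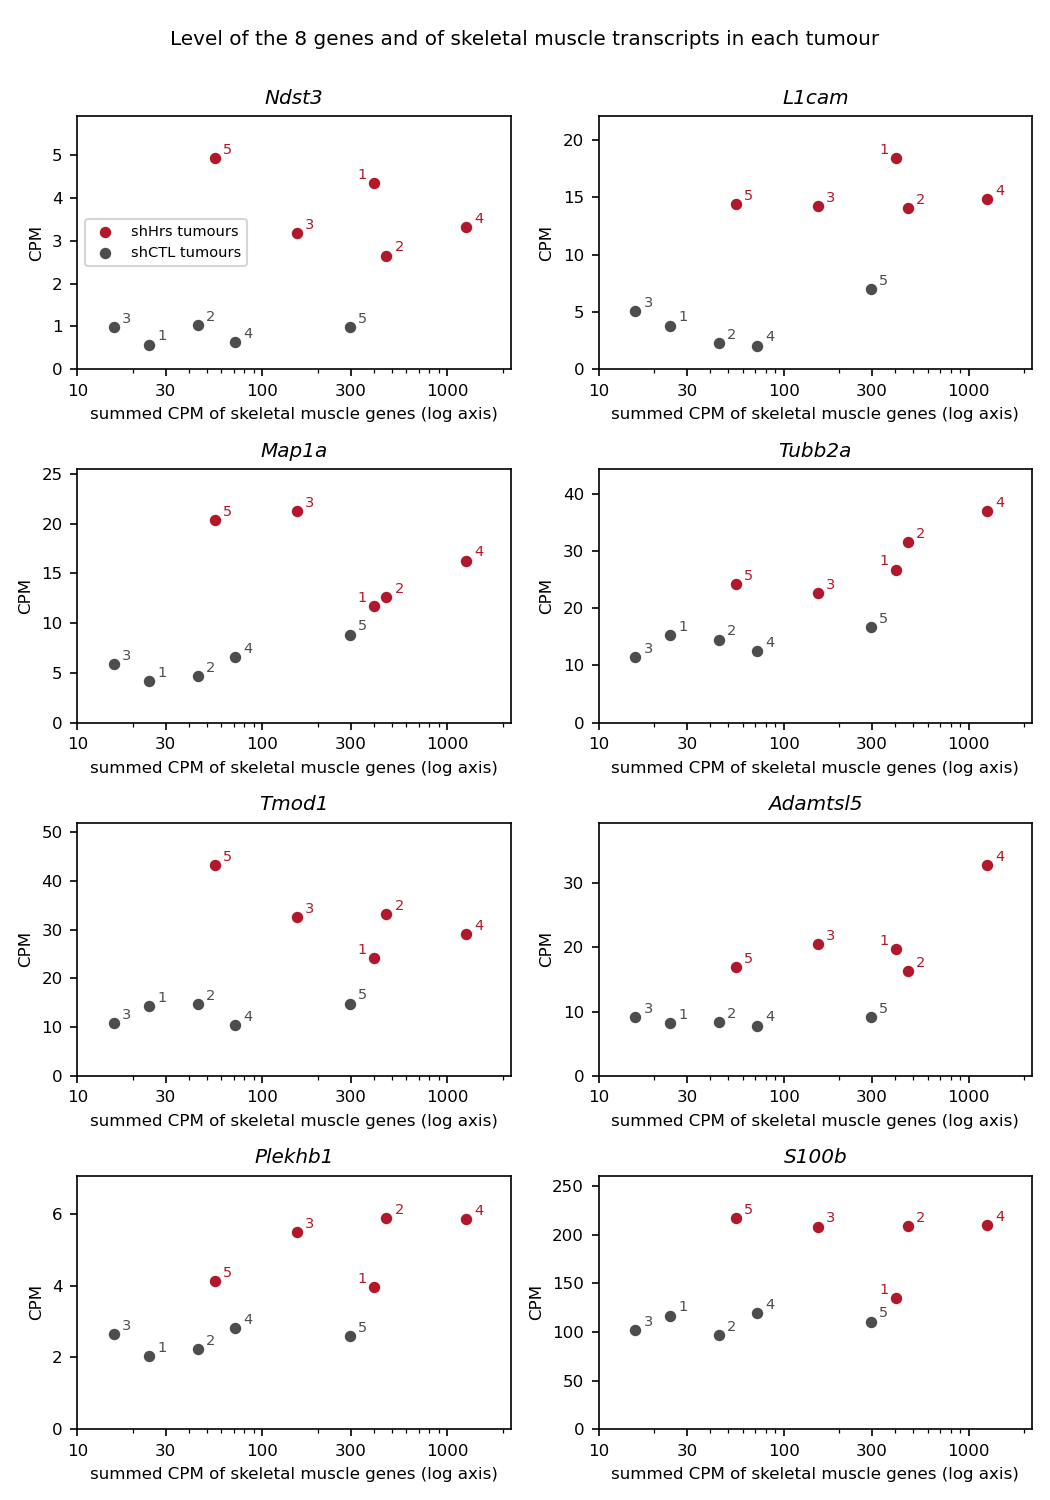
Level of each of the 8 genes in CPM (y axis) against the summed CPM of 16 skeletal muscle genes (x axis, log scale) in the 10 tumours, with shHrs in red and shCTL in grey and the replicate number beside each point. Muscle transcripts run from 55.3 to 1262 CPM in shHrs and from 15.8 to 296 CPM in shCTL tumours, and the red and grey points are apart in height in every panel because the genes were chosen so.

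Markers of other cell types were summed in the same tumours. Leukocyte markers summed to 218 to 1011 CPM in shHrs and 40.0 to 586 CPM in shCTL tumours, with 14 of 14 tested positive, a median of 0.60 and 0 called or at an unadjusted p under 0.05. Fibroblast and pericyte markers summed to 326 to 2014 CPM in shHrs and 352 to 3413 CPM in shCTL tumours, with 0 of 12 called or at an unadjusted p under 0.05. Endothelial markers summed to 154 to 268 CPM in shHrs and 159 to 235 CPM in shCTL tumours (0 of 12 called, 1 at an unadjusted p under 0.05). Fat cell markers summed to 29.2 to 103 CPM in shHrs and 24.2 to 139 CPM in shCTL tumours (0 of 5 called or at an unadjusted p under 0.05), and keratinocyte markers to at most 3.99 CPM in shHrs and 2.38 CPM in shCTL tumours, where Krt14, Krt1 and Krtdap were at 0. Erythroid markers, relevant to Tmod1 as a gene of the red cell skeleton, summed to 1.82 to 8.57 CPM in shHrs and 3.51 to 97.6 CPM in shCTL tumours, and Hba-a1 was at 0 in all of them. The pair of erythroid genes tested, Alas2 and Hba-a2, had an unadjusted p under 0.05 and were called lower by DESeq2 alone. The part of leukocytes and of these other cells in the 8 genes' levels was not tested.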

How the data were processed

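The deposited table holds raw read counts per gene symbol for 18 libraries, made by the authors. Per the submitters' processing notes, STAR 2.4.0h2, the build mm10 and DESeq were used; the sources used here do not give the counting tool, the annotation or the use of strand. All 18 columns were matched to samples by name, and the totals ran from 17.6 to 27.7 M.

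Counts were tested with edgeR 4.0.16 (R 4.3.3) by the quasi-likelihood F test, after TMM scaling and filterByExpr with a minimum count of 10, and p-values were adjusted by Benjamini and Hochberg across every gene in the fit, with calls at 0.05. The 10 tumours were fitted apart from the 8 cultures. Within batches, all 8 cultures shared one fit by group, and both batches together were fitted with batch as a term. The SE is the absolute log2 fold change over the root of F. CPM are on TMM-scaled sizes over the 18 libraries. Alternatives were RLE scaling, no filter, DESeq2 1.42.0, limma 3.58.1 voom, the replicate number as a block, a batch alone and each library left out. DESeq2's missing adjusted p-values stayed missing. The edgeR step was tested on simulated counts. Of log2 fold changes of 2, it recovered 78.1% over both culture batches, 47.1% in batch 1 and 53.9% in batch 2. For the batch difference it recovered 0% of changes of 1 and 5.43% of changes of 2. Between the shCTL cultures these were 1.05% and 58.7%, and in tumours 68.3% and 89%.

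The members and all lists were chosen with earlier results of these data known. The genes named are the 8, Hgs, their paralogs, up to 4 further called genes in each family in tumours, the 2 nearest profiles of each (log2 CPM with a pseudocount of 2, predicted genes left out) and the markers. The genes of the families that were called in batch 2 or by DESeq2 alone, and the neighbours that share exons, were named after their values were seen. Gene positions are from GENCODE M21 (GRCm38) and promoters from RefSeq (GRCm38.p6).

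Labels call the tumours both xenografts and homografts. Tumour and culture libraries were compared in level without a test. Values of some single marker genes are not reported here.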

Additional observations from a re-analysis of the deposited data

Results flagged for a closer look

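L1cam in shHrs tumour 1 stood apart from the other shHrs tumours at 18.4 CPM. Its gap to the next tumour was 0.822 of the group's whole range. Adamtsl5 in shHrs tumour 4 was apart at 32.9 CPM (0.741 of the range), and S100b in shHrs tumour 1 was the lowest at 135 CPM (0.894 of the range). Chance gives about 1 such case in 20 groups, and 16 groups of tumours were looked at.

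L1cam and Tmod1 lay below every control library of their batch in all shHrs cultures, as did 5.14% of all genes, and above every control in all shHrs tumours, which the choice of genes fixed. L1cam had a log2 fold change of -0.93 over both culture batches and 1.90 in tumours, and Tmod1 -1.11 over both culture batches and 1.31 in tumours. The difference was not tested, since the tumour contrast chose the genes.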

How the results depend on the processing

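Tumour values of the 8 genes, whose sign the choice of genes fixed, ran from 0.79 for Tubb2a to 2.30 for Ndst3 over 17 alternatives. In the cultures, 488 of 528 values of the 8 genes kept their side of the threshold. Uncalled values that changed direction by less than the replicate SD are counted among these. A further 33 passed in the same direction, and 7 uncalled values changed direction by more than the replicate SD. Tubb2a over both batches is one, with 0.31 without batch 1 shCTL 2 and 0.46 without batch 1 shHrs 2, against -0.21. The causes were not tested.

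By DESeq2, 549 genes were called in tumours, 301 over both batches (1 of the 8), 220 in batch 1 (1), 1988 in batch 2 (3), 980 for the batch difference (1) and 129 between controls (1). Limma voom called 5 over both batches, 13 for the batch difference and 2 between controls. With no filter the calls were 74, 438 (1), 2224 (3), 1311 (2) and 291 (1) in the culture comparisons in the same order. Batch 2 alone gave 4303 (4). Leaving out 1 library gave 32 to 158 calls in tumours, 0 to 164 over both batches, 0 to 1496 in batch 1 (0 to 2 of the 8), 0 to 2732 in batch 2 (0 to 3), 0 to 1968 for the batch difference (0 to 3) and 0 to 153 between controls (0 to 1). Without shHrs tumours 1, 2 and 4 and shCTL tumour 5, a setting added after seeing the data, 1 gene was called.

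With the replicate number as a block, 2 genes were called in tumours, 0 over both batches, 1 in batch 1, 464 in batch 2 and 18 for the batch difference. Same-numbered deviations correlated at -0.588 to 0.462 in tumours, 0.175 in batch 1 and 0.0229 in batch 2. Not every tumour correlated best with its own number, so the numbers gave no sign of pairing in tumours. With 2 libraries per culture group, these correlations cannot decide if the cultures are paired. Counts of 8 to 48 per culture limit Plekhb1.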
